A study of Mus musculus with 10 samples.

Results

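Nascent transcription of 10 genes of the primitive endoderm and its basement membrane was followed in mouse embryonic stem cells. The genes were chosen by name and are 10 of the 24901 genes measured. They are the transcription factor genes Gata4, Gata6, Sox7 and Sox17, the receptor gene Pdgfra, the laminin chain genes Lama1, Lamb1 and Lamc1, and the collagen IV chain genes Col4a1 and Col4a2. Each symbol stood on a single line of the table, and each gene had reads in at least 6 of the 8 columns.

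The primitive endoderm is the layer of the blastocyst that forms beside the epiblast, the source of embryonic stem cells, and it gives rise to the visceral and parietal endoderm of the yolk sac. FGF signalling through MAP kinase and the factor GATA6 set it apart from the epiblast, GATA4, SOX17 and SOX7 follow, and PDGFRA marks its surface. Its cells secrete laminin, a trimer of an alpha, a beta and a gamma chain, and collagen IV, a trimer of alpha chains, which together build the basement membrane. In embryonic stem cells, regulators of this kind are known to carry histone H3 methylation laid down by Polycomb repressive complex 2, or PRC2, of which EED is a core subunit.

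The study labelled new RNA with bromouridine (2 mM for 10 min), captured it with an antibody and sequenced it, in medium with LIF, the MEK inhibitor PD0325901 (1 µM) and the GSK3 inhibitor CHIR99021 (3 µM). The groups are EloA_K754M and EloA_K754R, edited cells in which Elongin A, which belongs to a complex that speeds RNA polymerase II along genes, carries methionine or arginine in place of a lysine; EloA_WT, with wild-type Elongin A; Eed_null, titled as lacking Eed; and CJ7_WT, a wild-type line. Each group has 2 samples, and EloA_K754M, EloA_K754R and EloA_WT have a column for each library, whereas Eed_null and CJ7_WT have 1 pooled column each. Whether the replicates were separate cultures or clones is not stated, so the p-values measure the spread between these samples only, which may be technical. The line is given as CCE28 for EloA_WT and Eed_null and as CJ7 for the other groups, although the growth protocol names CJ7 throughout, and the genotype field of the Eed_null samples reads EloA null. If the line field is right, line and genotype cannot be told apart in the comparisons with EloA_WT or in that of Eed_null with CJ7_WT.

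Transcription is given as intronic RPKM, which divides the reads found in introns by total intron length and sequencing depth. Recovered intronic reads came to 26972532 to 39991695 in the 6 single libraries, 73615770 in pooled Eed_null and 88613339 in pooled CJ7_WT. All 14 measured stem cell markers, Pou5f1, Nanog and Klf4 among them, were at 0.1 RPKM or more in every column. Eed itself stood at 7.97 RPKM in Eed_null and 10.0 RPKM in CJ7_WT, and intronic reads check neither a null allele nor a point substitution. EloA_K754M replicate 2 stood apart at the low end of the scale, with a lower quartile over all genes of 0.110 RPKM, against 0.0111 to 0.0498 RPKM in the other 7 columns. This touches Gata4, Sox7, Sox17 and Pdgfra, whose values lie in that range. In these bulk samples, fewer cells of a type and less RNA per cell cannot be told apart.

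The promoters of both collagen IV chains and of Lamb1 are given here because these 3 chain genes were higher in Eed_null than in every other column. RefSeq (GRCm38.p6) gave a window of 250 bases before to 50 after the start for 4 of the 10 genes, namely Pdgfra, Lamb1, Col4a1 and Col4a2. Col4a1 and Col4a2 are divergent neighbours whose start sites lie 21 bases apart. The first sequence is Col4a1, chr8:11312777-11313076 on the minus strand, with the 78 bases shared with the Col4a2 window in capitals. The second is Lamb1, chr12:31265043-31265342 on the plus strand, with CpG dinucleotides in capitals.
Col4a1: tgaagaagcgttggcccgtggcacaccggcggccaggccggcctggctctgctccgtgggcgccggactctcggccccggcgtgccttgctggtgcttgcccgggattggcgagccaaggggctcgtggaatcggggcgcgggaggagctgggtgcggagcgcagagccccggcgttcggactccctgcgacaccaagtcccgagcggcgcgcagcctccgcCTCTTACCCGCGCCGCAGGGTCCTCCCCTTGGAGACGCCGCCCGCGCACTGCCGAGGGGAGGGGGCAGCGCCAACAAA
Lamb1: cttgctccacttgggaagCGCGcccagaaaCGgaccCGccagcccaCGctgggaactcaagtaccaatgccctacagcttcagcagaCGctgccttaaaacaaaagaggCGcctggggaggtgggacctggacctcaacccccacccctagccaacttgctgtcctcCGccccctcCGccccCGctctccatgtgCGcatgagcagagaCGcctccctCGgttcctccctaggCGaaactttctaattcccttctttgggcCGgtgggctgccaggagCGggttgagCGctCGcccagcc
The Col4a1 window held 37 CpG, more than 94.4% of all 32851 windows, and the Col4a2 window (chr8:11312555-11312854, plus strand) held 33, more than 91.4%. Lamb1 held 18 CpG, more than 70.3% of windows, and Pdgfra held 5, below the median of 7. Both strands were searched for the GATA factor site, written as GATAA or GATAG with A or T before it, and none of the 4 windows held it, while 29.8% of all windows did. None held the SOX core AACAAT, which 10.7% of all windows held. CCAAT occurred 1 time each in the Lamb1, Col4a1 and Col4a2 windows and in 37.4% of all windows. These matches are a description of the letters only.

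The levels of the 10 genes covered a wide range. Lamc1, the laminin gamma chain, had the highest RPKM of the 10 in each of the 8 columns, and Lama1, the laminin alpha chain, came next in all columns but Eed_null, where Col4a1 did. Col4a1, Lamb1 and Col4a2 followed, then Gata6, and the lowest places in every column belonged to Gata4, Pdgfra, Sox7 and Sox17. Between Lamc1 and Lama1 the gap exceeded the spread of the replicates in each group that has a column for each library. Col4a1 and Lamb1 changed places between the EloA_WT replicates, with 0.461 and 0.437 RPKM for Col4a1 and 0.493 and 0.303 RPKM for Lamb1, so their order is not resolved there. The same holds for Gata4 and Pdgfra in EloA_K754M. In the 6 single libraries the highest value was 1.38 times the lowest for Lamc1, 1.39 times for Gata6 and at most 1.98 times for the other genes read in every library.

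**Figure D1:**
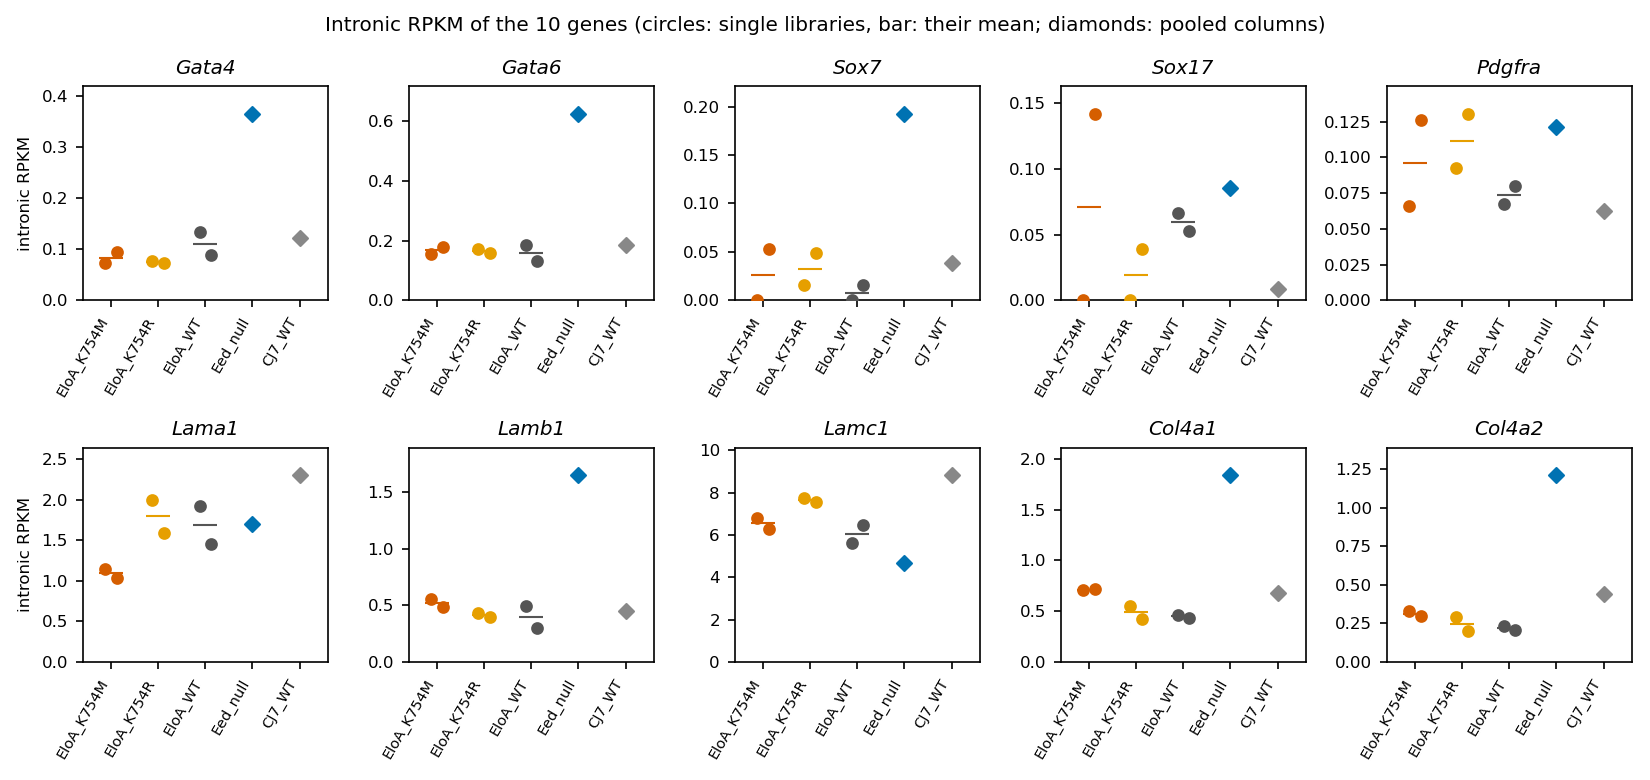
Intronic RPKM (vertical axis, from 0, with its own scale in each panel) of the 10 genes in EloA_K754M, EloA_K754R, EloA_WT, Eed_null and CJ7_WT. Circles are single libraries with a bar at their mean and diamonds are pooled columns; the Eed_null diamond is the highest point for Gata4, Gata6, Sox7, Lamb1, Col4a1 and Col4a2 and the lowest for Lamc1.

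Eed_null was set against CJ7_WT to see how these genes are transcribed in cells titled as lacking a PRC2 core subunit. Gata4, Gata6, Sox7, Lamb1, Col4a1 and Col4a2 were at least 2-fold higher in Eed_null, Lama1 and Lamc1 were lower without reaching 2-fold, and Sox17 and Pdgfra had too little signal for the count. With 1 pooled column per group there is no test, and the intervals below are exact 95% intervals of the ratio of recovered reads, which cover counting error only. Of the 8 genes averaging 0.1 RPKM or more over both columns, 6 were at least 2-fold higher on the scale of log2(RPKM + 0.1) and 0 at least 2-fold lower. Among all 14890 such genes, 6.12% were at least 2-fold higher and 1.67% at least 2-fold lower. This filter lets in a gene low in CJ7_WT only if it is high in Eed_null, here and in the lists below. Sox7 entered in this way, at 0.0388 RPKM in CJ7_WT and 0.192 RPKM in Eed_null. Its place among the 8 genes and the 6 was thus partly set by the value counted. As a plain ratio of RPKM, 7 of the 10 genes reached 2, among them Sox17, which lies under the mean of 0.1 RPKM. The share was 9.67% over 14817 genes that reach this mean and have reads in CJ7_WT. That set holds neither Sox17 nor Pdgfra, so these shares are not over like sets. All 6 genes lay below 1 RPKM in CJ7_WT, and 11.2% of the genes in that range were at least 2-fold higher. The median log2 ratio was 1.18 over the 8 genes and 0.113 over all genes. Eed_null was also the highest of the 8 columns for these 6 genes, as it was for 23.9% of all genes.

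Among the regulators, Gata6, which initiates the primitive endoderm programme, stood at 0.622 RPKM in Eed_null and 0.185 RPKM in CJ7_WT, from 747 and 265 reads. The ratio was 3.37 (95% interval 2.93 to 3.90), and the Eed_null value was 3.36 times the highest of the other 7 columns. Gata4, a factor that acts with GATA6, stood at 0.365 RPKM in Eed_null and 0.123 RPKM in CJ7_WT, a ratio of 2.98 (2.65 to 3.35). Sox7, a SOX factor of the parietal endoderm, was read 29 times in Eed_null and 7 times in CJ7_WT, which gave 0.192 and 0.0388 RPKM and a ratio of 4.96 (2.13 to 13.4). For these 3 factors the Eed_null column lay above every other column by at least 2.74 times. Even so, the levels were low, and each remained below 1 RPKM in Eed_null.

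Sox17, a SOX factor of the primitive and definitive endoderm, rested on 8 reads in Eed_null and 1 read in CJ7_WT, for 0.0854 and 0.00892 RPKM. Its ratio of 9.57 has an interval of 1.28 to 425, and EloA_K754M replicate 2 was higher than Eed_null at 0.142 RPKM from 5 reads. Pdgfra, the PDGF receptor on the surface of primitive endoderm, stood at 0.122 RPKM in Eed_null and 0.0627 RPKM in CJ7_WT, a ratio of 1.94 (1.64 to 2.29). That Eed_null value lay within the range of the mutant libraries, the highest of which was EloA_K754R replicate 2 at 0.130 RPKM. Sox17 and Pdgfra thus did not have their highest value in Eed_null.

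The basement membrane chains split. Lamb1, the laminin beta chain, stood at 1.65 RPKM in Eed_null and 0.447 RPKM in CJ7_WT, a ratio of 3.69 (3.45 to 3.94), and 1.58% of all genes had a larger log2 ratio. Col4a1 stood at 1.84 RPKM in Eed_null and 0.675 RPKM in CJ7_WT, a ratio of 2.72 (2.65 to 2.80), and Col4a2 at 1.21 and 0.439 RPKM, a ratio of 2.76 (2.67 to 2.84). These 3 chains lay in Eed_null at 2.56 to 2.97 times the highest other column. Lama1 and Lamc1, the other laminin chains of the chosen set, went the other way, which does not hold for every laminin chain outside the set. Lama1 stood at 1.70 RPKM in Eed_null and 2.30 RPKM in CJ7_WT, a ratio of 0.739 (0.724 to 0.754), and Lamc1 at 4.70 and 8.81 RPKM, a ratio of 0.533 (0.527 to 0.539).

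**Figure D2:**
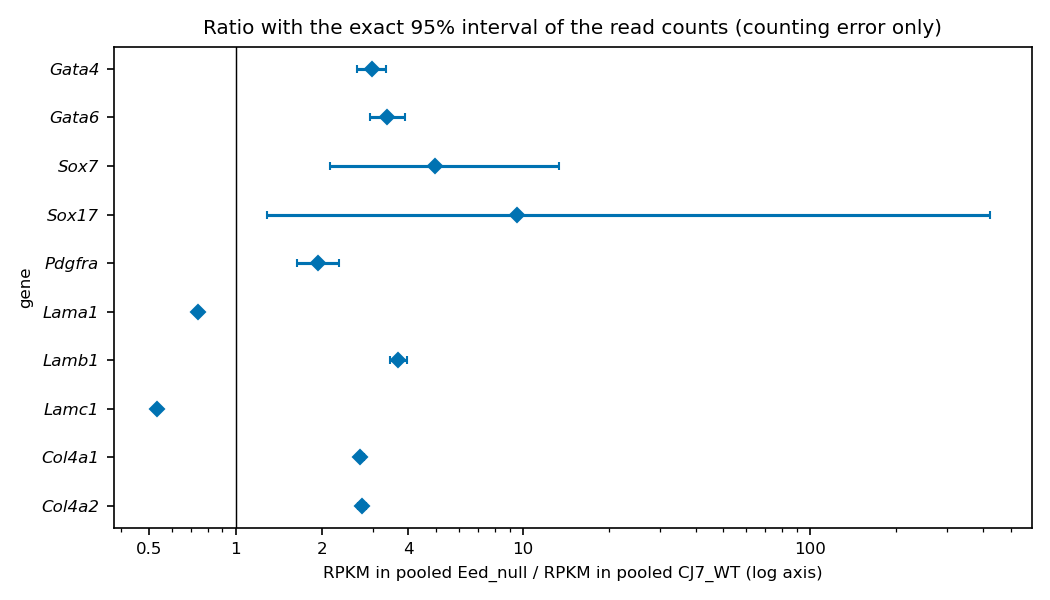
Ratio of RPKM in pooled Eed_null to pooled CJ7_WT for the 10 genes on a log axis, with exact 95% intervals of the read counts (bars; counting error only). Lama1 and Lamc1 lie below 1 at 0.739 and 0.533, the other 8 genes lie above 1, and the intervals of Sox7 (29 and 7 reads) and Sox17 (8 and 1 reads) are wide.

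The 6 genes stayed at least 2-fold higher in Eed_null with another reference, while the values moved. Because the line field of Eed_null matches that of EloA_WT, the mean of the EloA_WT libraries was also used as the reference, a choice made after the values were seen. Gata4, Gata6, Sox7, Lamb1, Col4a1 and Col4a2 then had log2 ratios of 1.14 to 2.03 on the log2(RPKM + 0.1) scale. With this reference 1236 of all genes were at least 2-fold higher, beside 911 with CJ7_WT. Col4a2 gave 2.03 in place of 1.28 and Col4a1 1.82 in place of 1.32. Lama1 gave 0.01, since it stood at 1.70 RPKM in Eed_null and 1.92 and 1.46 RPKM in EloA_WT, and Lamc1 gave −0.36 in place of −0.89. CJ7_WT was the highest of the 8 columns for both Lama1 and Lamc1. With a pseudocount of 1, larger than most of these levels, 0 of the 8 genes and 93 of all genes were at least 2-fold higher. With equal column medians 4 of the 8 and 714 of all genes were, with Gata4 at 0.95 and Sox7 at 0.96.

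The chromosome medians of the log2 ratio were at most 0.22 in size for the 6 higher genes. They were −0.20 for chromosome 8 (Col4a1 and Col4a2), −0.05 for chromosome 14 (Gata4 and Sox7), 0.10 for chromosome 18 (Gata6), 0.22 for chromosome 12 (Lamb1), 0.19 for chromosome 17 (Lama1), 0.14 for chromosome 5 (Pdgfra) and −0.01 for chromosome 1 (Lamc1 and Sox17). For Lama1, with a log2 ratio of −0.42, the median had the opposite sign. With the chromosome median removed, the same count of 6 genes was at least 2-fold higher, beside 656 of all genes. Other annotated genes overlap Gata6, Sox17, Pdgfra, Lamc1, Col4a1 and Col4a2, the collagen pair also overlaps each other on opposite strands, and strand handling is not given in the sources used here. Reads of those partners therefore cannot be told apart from reads of these genes.

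The balance between chains showed the split most directly, as ratios of RPKM within a column. Lamb1 over Lamc1 was 0.350 in Eed_null and 0.0507 in CJ7_WT, and lay between 0.0467 and 0.0878 in the 6 single libraries. Lama1 over Lamb1 was 1.03 in Eed_null and 5.15 in CJ7_WT, with 2.07 and 2.16 in EloA_K754M, 4.58 and 3.99 in EloA_K754R and 3.89 and 4.81 in EloA_WT. Eed_null was alone in having Lama1 and Lamb1 transcribed at nearly the same level. Lama5, an alpha chain gene outside the set, stood above both, at 10.2 RPKM in Eed_null and 5.51 RPKM in CJ7_WT. Col4a2 over Col4a1 was 0.659 in Eed_null and 0.651 in CJ7_WT, and 0.416 to 0.526 in the single libraries. The collagen IV pair thus kept nearly the same ratio in Eed_null and CJ7_WT while both genes differed between them. In the 6 single libraries the log2 values of Col4a1 and Col4a2 had a Pearson correlation of 0.941, a description over libraries that differ in depth and, by the label field, in line.

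**Figure D3:**
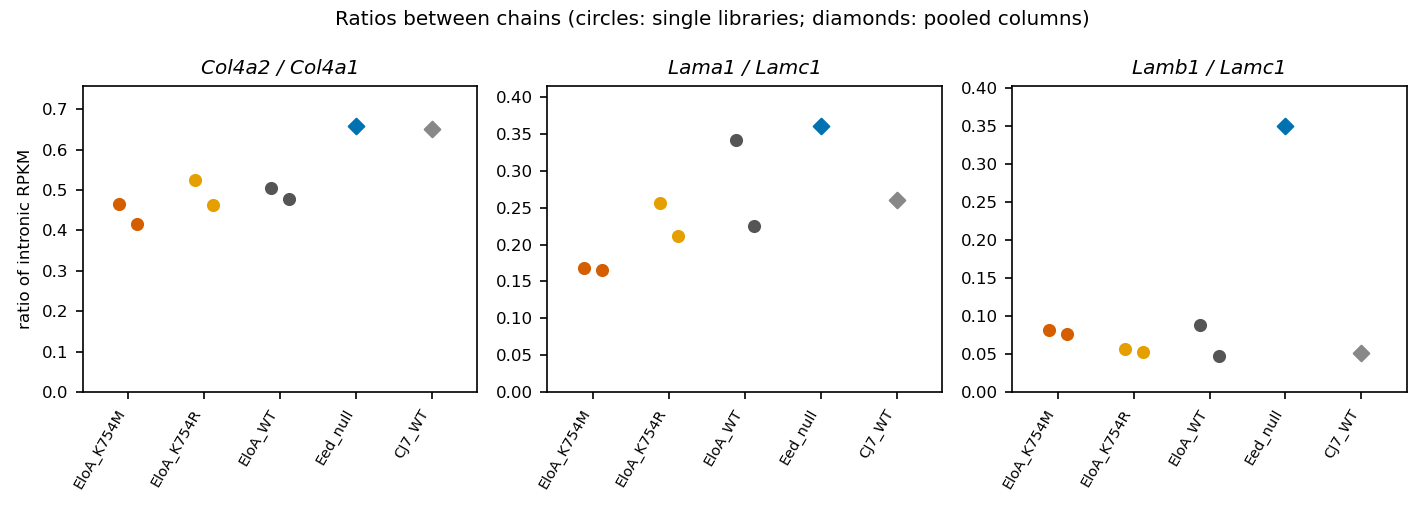
Ratios of intronic RPKM between chains of the same molecule (vertical axes from 0) in EloA_K754M, EloA_K754R, EloA_WT, Eed_null and CJ7_WT; circles are single libraries and diamonds pooled columns. Lamb1 over Lamc1 is 0.350 in Eed_null and at most 0.0878 elsewhere, while Col4a2 over Col4a1 lies between 0.416 and 0.659 throughout.

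Other genes of the same tissue and pathway were taken from lists. Of 16 other endoderm genes with enough signal, 3 were at least 2-fold higher in Eed_null and 1 at least 2-fold lower, beside 6.12% and 1.67% of all genes. Of all genes below 1 RPKM in CJ7_WT, 11.2% were at least 2-fold higher. The median log2 ratio of the 16 was 0.543. The 3 were Cited1, a transcriptional co-activator of visceral endoderm, at 0.490 RPKM in Eed_null and 0.0615 RPKM in CJ7_WT, Snai1, a repressor of epithelial genes, at 0.623 and 0.111 RPKM, and the FGF receptor gene Fgfr3 at 0.347 and 0.0369 RPKM. Cited1 and Fgfr3 reached the mean of 0.1 RPKM needed for this count only through Eed_null. Snai1 was as high in EloA_WT replicate 1, at 0.691 RPKM. Ttr, the thyroxine carrier transthyretin of visceral endoderm, was the lower one, at 0.0667 RPKM in Eed_null and 0.321 RPKM in CJ7_WT. Some well-known endoderm genes were at or near 0 in both columns. Foxa2 had 0 reads in each and Afp had 2 reads in Eed_null and 4 in CJ7_WT.

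Among 14 other basement membrane genes, 2 were at least 2-fold higher and 0 lower, beside 6.12% and 1.67% of all genes, and the median log2 ratio was 0.01. Frem2, a matrix protein of embryonic basement membranes, stood at 0.790 RPKM in Eed_null and 0.0325 RPKM in CJ7_WT, from 8305 and 408 reads. It reached the mean of 0.1 RPKM only through Eed_null. Smoc1, a calcium-binding matrix protein, stood at 2.42 and 0.993 RPKM, and Lama5, another laminin alpha chain, had a log2 ratio of 0.88. Of 14 genes that modify, fold, cross-link or export collagen IV, 4 were at least 2-fold higher and 0 lower, beside the same shares of all genes. They were the prolyl hydroxylase P4ha2 (3.20 RPKM in Eed_null and 0.292 RPKM in CJ7_WT), the lysyl oxidase Loxl2 (2.43 and 0.657 RPKM), the lysyl hydroxylase Plod1 (0.494 and 0.134 RPKM) and the peroxidase Pxdn (0.389 and 0.137 RPKM), which forms the sulfilimine links of collagen IV. P4ha2 varied widely in the wild type as well, with 1.29 and 0.271 RPKM in the EloA_WT libraries.

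The receptor and signalling lists held no gene past 2-fold. Of 13 basement membrane receptor genes, 0 passed 2-fold in either direction (median log2 ratio −0.04), and the largest ratios were those of the integrin Itgb4 (−0.75), the dystroglycan glycosyltransferase Large (−0.61) and the laminin receptor Bcam (−0.47). Of 15 PDGF and FGF signalling genes, 0 passed 2-fold (median 0.01), with Pdgfrb (0.63), Kit (−0.57) and Kdr (0.57), all receptor tyrosine kinases, at the extremes. Among 6 paralogs and partners of the transcription factors, Gata2 (0.298 RPKM in Eed_null and 0.0766 RPKM in CJ7_WT) and the GATA cofactor Zfpm1 (1.02 and 0.450 RPKM) were at least 2-fold higher. Over all genes that share was 6.12%. Gata2 reached the mean of 0.1 RPKM only through Eed_null. Sox18 had 0 reads in Eed_null and 2 reads in CJ7_WT and is given no fold.

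**Figure D4:**
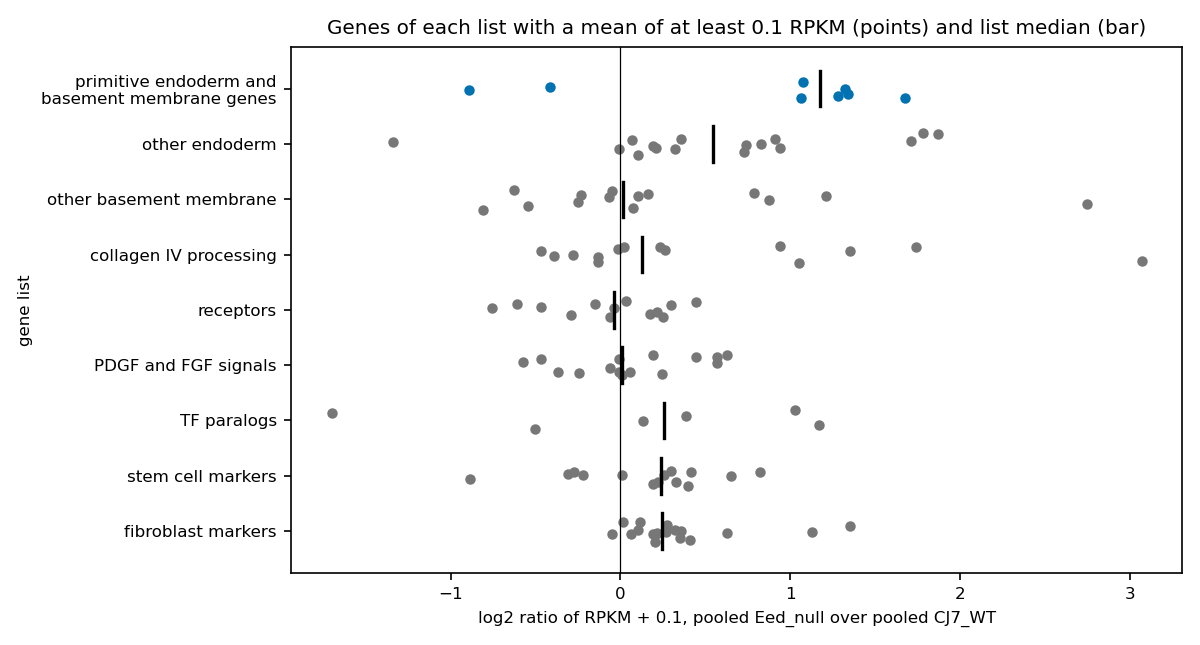
Log2 ratio of RPKM + 0.1, pooled Eed_null over pooled CJ7_WT (horizontal axis), of each gene averaging 0.1 RPKM or more (points) in the 10-gene set and 8 further lists, with the median of each list (bar). The set has a median of 1.18 with Lama1 and Lamc1 to the left of 0, and the medians of the other lists lie between −0.04 and 0.54; the leftmost paralog point is Sox18, from 0 and 2 reads.

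Fibroblasts also transcribe Pdgfra, Lamb1, Lamc1, Col4a1 and Col4a2, and the growth protocol mentions feeder cells that were depleted before use. The extraction protocol, however, mentions feeder-free culture. The 25 fibroblast markers summed to 21.0 RPKM in Eed_null and 15.7 RPKM in CJ7_WT. Of 18 with enough signal, 17 had a positive log2 ratio, with a median of 0.244, and 2 were at least 2-fold higher, beside 6.12% of all genes. These 2 were Ddr2 (3.81 RPKM in Eed_null and 1.68 RPKM in CJ7_WT) and Thy1 (0.324 and 0.0662 RPKM). Thy1 reached the mean of 0.1 RPKM only through Eed_null. Col1a1, the collagen I marker of fibroblasts, stood at 3.80 RPKM in Eed_null and 3.13 RPKM in CJ7_WT. The sums were 15.1 and 12.3 RPKM in EloA_K754M, 16.5 and 12.9 RPKM in EloA_K754R and 10.8 and 9.16 RPKM in EloA_WT, so both mutants lay above both EloA_WT libraries. None of the 25 was at 0 in Eed_null, CJ7_WT or the mutants. The part of such cells in the results was not tested.

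EloA_K754M against EloA_WT asks what changes when the lysine becomes methionine. The collagen IV chains were higher and Lama1 was lower in both EloA_K754M libraries than in both EloA_WT libraries, but none of the 6 tested genes passed the threshold of an adjusted p under 0.05. Over all 15161 genes tested with limma, 0.218% passed (0.0132% higher and 0.204% lower), and 0 of the 6 did. At an unadjusted p under 0.05 there were 2 of the 6, Col4a1 and Lama1, beside 15.4% of all genes. The other 4 genes, Gata4, Sox7, Sox17 and Pdgfra, lay under the mean of 0.1 RPKM needed for the test and are given from a fit without that filter.

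Col4a1 stood at 0.704 and 0.718 RPKM in EloA_K754M and 0.461 and 0.437 RPKM in EloA_WT. The groups did not overlap, and the means were 0.711 ± 0.00962 RPKM in EloA_K754M and 0.449 ± 0.0168 RPKM in EloA_WT (SD, n = 2 each). The log2 change was 0.56 (SE 0.17, 95% interval 0.14 to 0.98, limma adjusted p = 0.209). Its neighbour Col4a2 stood at 0.328 and 0.299 RPKM in EloA_K754M and 0.233 and 0.208 RPKM in EloA_WT. These groups did not overlap either, and the log2 change was 0.37 (−0.17 to 0.91, adjusted p = 0.499). Both values lay above both EloA_WT values for 17.0% of all genes.

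Lama1 stood at 1.14 and 1.04 RPKM in EloA_K754M and 1.92 and 1.46 RPKM in EloA_WT. Both EloA_K754M libraries were lower, as they were for 27.2% of all genes, and the log2 change was −0.58 (SE 0.18, −1.03 to −0.12, limma adjusted p = 0.231). Lamb1, at 0.554 and 0.481 RPKM in EloA_K754M and 0.493 and 0.303 RPKM in EloA_WT, overlapped between the groups (0.33, −0.24 to 0.91, adjusted p = 0.556). So did Lamc1, at 6.81 and 6.28 RPKM in EloA_K754M and 5.62 and 6.48 RPKM in EloA_WT (0.11, −0.20 to 0.42, adjusted p = 0.725). The laminin ratio Lama1 over Lamc1 was 0.168 and 0.165 in EloA_K754M and 0.342 and 0.225 in EloA_WT, and here the groups did not overlap.

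The regulators showed no clear direction. Gata6 stood at 0.154 and 0.179 RPKM in EloA_K754M and 0.185 and 0.133 RPKM in EloA_WT, from 65 to 107 reads per library, with a log2 change of 0.05 (−0.53 to 0.62, limma adjusted p = 0.952). The sign of that change turns under quantile normalization, and the interval leaves room for changes of either sign. Gata4 stood at 0.0729 and 0.0942 RPKM in EloA_K754M and 0.133 and 0.0891 RPKM in EloA_WT, an overlap (−0.20, −0.82 to 0.43, adjusted p = 0.808 without the filter), and the higher EloA_K754M value is that of the library that stood apart. Pdgfra, at 0.0658 and 0.126 RPKM in EloA_K754M and 0.0674 and 0.0799 RPKM in EloA_WT, overlapped too (0.16, −0.53 to 0.84, adjusted p = 0.839).

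Sox7 and Sox17 were near the limit of detection in all single libraries. Sox7 had 0 and 3 reads in EloA_K754M, 1 and 4 in EloA_K754R and 0 and 1 in EloA_WT, and a count of 0 allows up to 0.0541 RPKM in EloA_K754M replicate 1 and 0.0413 RPKM in EloA_WT replicate 1 (3 reads). Sox17 had 0 and 5 reads in EloA_K754M, 0 and 2 in EloA_K754R and 3 and 2 in EloA_WT, and 0 reads allow up to 0.0872 RPKM in EloA_K754M replicate 1 and 0.0792 RPKM in EloA_K754R replicate 1. No difference between the groups was detectable for either gene at this depth.

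EloA_K754R against EloA_WT asks the same of arginine, a residue that keeps the positive charge. Lamc1 was higher in both EloA_K754R libraries and the other tested genes overlapped with EloA_WT. Again 0 of the 6 passed, beside 3.48% of all genes (0.686% higher and 2.79% lower). Before adjustment 1 of the 6 had a p under 0.05, beside 25.1% of all genes. The median log2 change was 0.09 over the 6 genes and −0.14 over all genes.

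Lamc1 stood at 7.75 and 7.55 RPKM in EloA_K754R and 5.62 and 6.48 RPKM in EloA_WT. The means were 7.65 ± 0.139 RPKM in EloA_K754R and 6.05 ± 0.612 RPKM in EloA_WT (SD, n = 2 each), with a log2 change of 0.34 (SE 0.13, 0.03 to 0.65, limma adjusted p = 0.172). Both values lay above both EloA_WT values for 18.0% of all genes, and the median change of chromosome 1, which holds Lamc1, was 0.10. Lama1 stood at 1.99 and 1.59 RPKM in EloA_K754R, about level with 1.92 and 1.46 RPKM in EloA_WT (0.09, −0.37 to 0.54, adjusted p = 0.814). Lamb1 stood at 0.435 and 0.400 RPKM in EloA_K754R, inside the span of 0.493 and 0.303 RPKM in EloA_WT (0.08, −0.49 to 0.65, adjusted p = 0.866).

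Col4a1 stood at 0.549 and 0.426 RPKM in EloA_K754R and 0.461 and 0.437 RPKM in EloA_WT (log2 change 0.09, −0.33 to 0.51, limma adjusted p = 0.780). Col4a2 stood at 0.289 and 0.198 RPKM in EloA_K754R and 0.233 and 0.208 RPKM in EloA_WT (0.09, −0.45 to 0.63, adjusted p = 0.844). In both cases the EloA_K754R libraries lay on either side of the EloA_WT libraries. Without EloA_K754R replicate 1 the signs of Lama1, Col4a1 and Col4a2 turned, to −0.07, −0.06 and −0.11. Gata6, at 0.173 and 0.158 RPKM in EloA_K754R and 0.185 and 0.133 RPKM in EloA_WT, gave 0.04 (−0.53 to 0.61, adjusted p = 0.932), and without EloA_WT replicate 2 it gave −0.10.

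Gata4 stood at 0.0779 and 0.0728 RPKM in EloA_K754R and 0.133 and 0.0891 RPKM in EloA_WT, both libraries lower (−0.26, −0.88 to 0.36, limma adjusted p = 0.804 without the filter). Pdgfra stood at 0.0929 and 0.130 RPKM in EloA_K754R and 0.0674 and 0.0799 RPKM in EloA_WT, both higher (0.28, −0.40 to 0.96, adjusted p = 0.812). Of the 15161 tested genes, which include neither Gata4 nor Pdgfra, 38.8% had both values lower and 18.0% both higher. The ratio of Gata4 to Gata6 was 0.450 and 0.460 in EloA_K754R, 0.473 and 0.526 in EloA_K754M and 0.719 and 0.669 in EloA_WT, so both mutants lay below both EloA_WT libraries. These ratios rest on only 74 to 177 Gata4 reads and 65 to 107 Gata6 reads per library. They have no interval, and their difference between the groups was not tested. The Gata4 level behind the 0.526 lies under the lower quartile of EloA_K754M replicate 2, the library that stood apart. In Eed_null the ratio was 0.586 and in CJ7_WT 0.664.

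Set against each other, EloA_K754M and EloA_K754R differed most in Lama1 and Col4a1 among the 6 genes. Of the 6, 0 passed, beside 0.29% of all genes (0.112% higher and 0.178% lower). Before adjustment 2 of the 6 had a p under 0.05, beside 18.5% of all genes. Lama1 stood at 1.14 and 1.04 RPKM in EloA_K754M and 1.99 and 1.59 RPKM in EloA_K754R, without overlap, with a log2 change of −0.66 (SE 0.18, −1.12 to −0.20, limma adjusted p = 0.155). Col4a1 was higher in both EloA_K754M libraries (0.47, 0.05 to 0.89, adjusted p = 0.228), as were Col4a2 (0.28, −0.26 to 0.82, adjusted p = 0.547) and Lamb1 (0.25, −0.32 to 0.83, adjusted p = 0.605). Lamc1 was lower in both (−0.22, −0.53 to 0.09, adjusted p = 0.404), and Gata6 overlapped (0.00, −0.57 to 0.58, adjusted p = 0.996; the sign turns with equal library medians). Of all genes, 31.9% had both EloA_K754M values above both EloA_K754R values and 18.6% had both below. Both comparisons of EloA_K754M use the same EloA_K754M libraries.

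**Figure D5:**
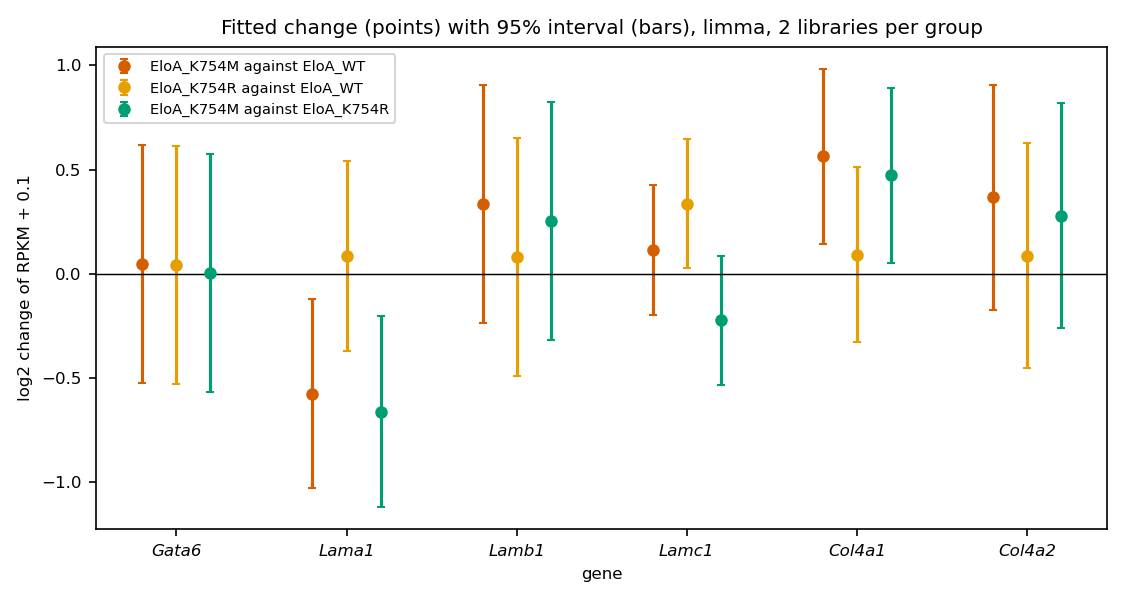
Fitted log2 change of RPKM + 0.1 (points) with 95% intervals (bars) from limma for the 6 tested genes in EloA_K754M against EloA_WT, EloA_K754R against EloA_WT and EloA_K754M against EloA_K754R, 2 libraries per group. The intervals of Lama1 and Col4a1 lie off 0 in both EloA_K754M comparisons and that of Lamc1 in EloA_K754R against EloA_WT; no adjusted p is under 0.05.

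A few related genes did pass the threshold, all in EloA_K754R against EloA_WT. Of 13 other basement membrane genes, 2 rose and 0 fell, beside 0.686% and 2.79% of all genes. Col18a1, whose product is cut to endostatin, stood at 1.82 and 1.94 RPKM in EloA_K754R and 0.490 and 0.719 RPKM in EloA_WT and rose by 1.51 on the log2 scale (limma adjusted p = 0.0315). Nid2, a nidogen that links laminin to collagen IV, stood at 8.35 and 8.60 RPKM in EloA_K754R and 5.02 and 5.53 RPKM in EloA_WT and rose by 0.68 (adjusted p = 0.047). The median change of its chromosome 14 was 0.25, and with that removed Nid2 gave 0.41 (adjusted p = 0.177). The third largest change was that of Nid1, the other nidogen, at −0.59 (adjusted p = 0.108).

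Of 14 collagen IV processing genes, 1 fell and 0 rose, beside 2.79% and 0.686% of all genes. P4hb, the shared subunit of the prolyl hydroxylases, stood at 4.91 and 4.45 RPKM in EloA_K754R and 9.06 and 9.60 RPKM in EloA_WT and fell by 0.98 on the log2 scale (limma adjusted p = 0.0319). With the chromosome median removed it gave −0.41 (adjusted p = 0.204). Plod1 (−0.76, adjusted p = 0.153) and the Golgi tether gene Cog1 (−0.61, adjusted p = 0.0693) did not pass. Of the 20 fibroblast markers tested, 19 had positive changes with a median of 0.375, and the matrix glycoprotein gene Tnc rose by 0.82 (adjusted p = 0.0438). Each of these 4 calls was lost when any single library of the 6 was left out, with adjusted p of at least 0.0796.

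The remaining lists held no call with limma in EloA_K754R against EloA_WT. Of 11 other endoderm genes, 4 had positive changes, and the largest were those of the endocytic receptor gene Lrp2 (−0.62, adjusted p = 0.258), the matrix protein gene Sparc (−0.61, adjusted p = 0.109) and the endoderm factor gene Hnf4a (0.60, adjusted p = 0.187), all by limma. Of 13 receptor genes, Itga3 (−0.96, adjusted p = 0.0562) and Bcam (−0.94, adjusted p = 0.0532), both laminin receptors, came closest, followed by Itgb4 (−0.34). Other settings did make calls here. Voom on the recovered reads called Hnf4a (adjusted p = 0.0255), Itga3 (0.0187) and Bcam (0.0205), and also Nid1 (0.0467) and Plod1 (0.0476) of the lists above. The replicate block called Lrp2 (0.0477), Sparc (0.0363), Itga3 (0.0423), Bcam (0.036), Nid1 (0.0332) and Cog1 (0.0383), and a pseudocount of 0.01 called Bcam (0.0486). Of 15 signalling genes, the ligand genes Pdgfa (0.50, adjusted p = 0.123) and Pdgfc (0.50, adjusted p = 0.161) and the ligand gene Fgf4 (−0.39) had the largest changes. Of 5 paralogs and partners, these were Gata3 (−0.76, adjusted p = 0.173), Gata2 (0.51) and Zfpm2 (0.36).

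In EloA_K754M against EloA_WT, none of these lists held a call with limma. Voom on the recovered reads called Col18a1 (adjusted p = 0.0328), Hspg2 (0.0328), Sos1 (0.0123) and Zfpm2 (0.0389), and limma with the replicate block called Sos1 (0.0371). Of 11 other endoderm genes, 8 had positive changes with a median of 0.404, beside −0.06 over all genes. An unadjusted p under 0.05 was found for 2 of the 11, beside 15.4% of all genes. The largest were those of Ttr (0.94, adjusted p = 0.351), the apolipoprotein gene Apoe (0.92, adjusted p = 0.204) and Amn (0.84, adjusted p = 0.418), which anchors the cubilin receptor. Amn stood at 0.541 and 1.51 RPKM in EloA_K754M and 0.498 and 0.438 RPKM in EloA_WT, and gave 0.17 without EloA_K754M replicate 2 and 1.504 without replicate 1. Ttr gave 0.40 without EloA_WT replicate 1 and 1.49 without EloA_WT replicate 2, and Apoe gave 0.54 without EloA_WT replicate 1. The median level of the 22 measured endoderm genes was 0.0844 and 0.203 RPKM in EloA_K754M replicates 1 and 2 and 0.0939 and 0.0958 RPKM in EloA_WT. Of the 20 fibroblast markers tested, 18 had positive changes, with a median of 0.378. The part of such cells, and of the library that stood apart, in these changes was not tested. Of 13 basement membrane genes, 5 had an unadjusted p under 0.05, beside 15.4% of all genes. The largest changes were those of Col18a1 (0.89, adjusted p = 0.124), the perlecan gene Hspg2 (0.70, adjusted p = 0.103) and the laminin chain gene Lama3 (−0.66, adjusted p = 0.356). Of 14 processing genes they were P4hb (−0.64, adjusted p = 0.109), P4ha2 (−0.54) and Cog1 (−0.46). The 13 receptor genes stayed within 0.21 of 0 (Itgb4 0.21, Ddr1 0.20, Itgb1 0.15). Among 15 signalling genes, Sos1, the exchange factor that activates RAS, had the largest change (−1.17, adjusted p = 0.081), before Fgf4 (−0.48) and Kdr (0.45), and among 5 paralogs and partners these were Zfpm2 (0.57), Zfpm1 (−0.22) and Gata2 (0.07).

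Between EloA_K754M and EloA_K754R, again 0 genes of these lists passed with limma. Voom called Lrp2 (adjusted p = 0.043), Agrn (0.0327), Bcam (0.0324), Itga3 (0.0351) and Sos1 (0.00756), and limma with the replicate block called Lrp2 (0.0401) and Sos1 (0.0321). Limma also called Sos1 with equal library medians (0.0286), quantile normalization (0.0438), chromosome medians removed (0.0393) and the intron length trend removed (0.0377). All 11 other endoderm genes had positive changes, with a median of 0.285 beside 0.09 over all genes. They were led by Apoe (1.25, adjusted p = 0.108), Lrp2 (1.12, adjusted p = 0.143) and Amn (0.96, adjusted p = 0.295, and 0.30 without EloA_K754M replicate 2). In EloA_K754M replicate 1, Hnf4a (0.161 RPKM) and Snai1 (0.294 RPKM) lay below both EloA_K754R libraries (0.198 and 0.178 RPKM, 0.308 and 0.430 RPKM), while the rest lay above both. The positive sign of Hnf4a and Snai1 thus rests on EloA_K754M replicate 2, the library that stood apart. Agrn (0.72) and Col18a1 (−0.62) were among the largest changes of the basement membrane list, Plod1 (0.69), P4ha2 (−0.60) and P4ha1 (−0.55) led the processing list, and Bcam (0.99), Itga3 (0.97) and Itgb4 (0.55) led the receptor list. Sos1 (−1.41, adjusted p = 0.0524), Pdgfb (−0.66) and Kdr (0.57) led the signalling list, and Gata3 (0.73), Gata2 (−0.44) and Zfpm1 (−0.27) the paralogs.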

How the data were processed

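The 10 genes and all gene lists were chosen with earlier results of these data known. The submitters' processing notes name BWA, a read aligner, and the mouse build mm9. The sources used here do not give the counter, annotation or strand handling. The authors deposited intronic RPKM for 24901 genes in 6 single-library columns and 2 columns named as averages. The low values are whole multiples of 1 read, and whole reads could be recovered for 20816 of 20817 genes with at least 6 columns above 0, within 0.01 of a read and up to 0.06 for high values. Both average columns also gave whole reads and are called pooled.

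Groups follow the sample titles. For the 6 libraries, log2(RPKM + 0.1) was fitted with limma 3.58.1 (R 4.3.3; eBayes with a trend) in a joint fit of the 3 groups. It covered 15161 genes averaging 0.1 RPKM or more, with two-sided tests, Benjamini-Hochberg adjustment over all genes and 3 residual degrees of freedom. This offset understates changes of low genes. "Rose" and "fell" mean an adjusted p under 0.05. The step was tested on simulated data. Eed_null and CJ7_WT were compared as log2 ratios over 14890 genes, with exact Clopper-Pearson intervals (scipy 1.17.1). All 10 genes are named, and of each related list the called genes and the 3 with the largest change per comparison, of which 1 result is not reported here; Tnc and Col1a1 of the fibroblast list, and Foxa2, Afp and Pxdn, were added after their values were seen. Alternatives were another pseudocount, filter, scaling or set of groups, voom on the recovered reads, a replicate block, removal of chromosome medians or of the intron length trend, and leaving out each library. Same-numbered replicates are not said to share a day and were not paired.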

Additional observations from a re-analysis of the deposited data

How the results depend on the processing

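None of the 6 tested genes passed under any alternative run, leaving out 1 library included, and the other 4, fitted only without the filter, did not pass; the smallest adjusted p was 0.0581, for Lama1 in EloA_K754M against EloA_K754R with the replicate block. Counts over all genes moved widely. For EloA_K754M against EloA_WT the 33 calls became 16 without the filter, 3 with only the groups compared, 16 with equal medians, 17 with quantile normalization, 344 with voom and 227 with the replicate block, and 2 to 52 without 1 library. For EloA_K754R against EloA_WT the 527 became 160, 1, 324, 333, 1342 and 1777 in the same order, 117 with chromosome medians removed, 264 with the length trend removed and 1 to 9 without 1 library. For EloA_K754M against EloA_K754R the 44 became 26, 26, 68, 90, 446 and 355 in that order, 27 with a pseudocount of 1, 12 from a mean of 0.5 RPKM and 5 to 62 without 1 library. The correlation of same-numbered replicates' deviations was 0.15 to 0.20 over 2 numbers, and the replicate block changed no call of the 6 tested genes. It did add calls among the related genes, such as Sos1 in EloA_K754M against EloA_WT (adjusted p = 0.0371), given in the report. The causes were not tested.

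Small changes turned sign. In EloA_K754M against EloA_WT these were Gata6 and Gata2 with quantile normalization (−0.061 and −0.14) and Cog1 with chromosome medians removed (0.0032). Without 1 library the log2 change there ran over −0.099 to 0.19 for Gata6, −1.49 to 0.41 for P4ha2, −0.17 to 0.60 for Itgb4, −0.13 to 0.54 for Ddr1 and −0.50 to 0.053 for Zfpm1. In EloA_K754R against EloA_WT the sign turned for Itgb4 with chromosome medians removed (0.23) and Col4a2 with the length trend removed (−0.0052). Without 1 library the change ran over −0.10 to 0.19 for Gata6, −0.10 to 0.27 for Lama1, −0.20 to 0.36 for Lamb1, −0.060 to 0.24 for Col4a1, −0.11 to 0.28 for Col4a2, −0.73 to 0.049 for Itgb4 and −0.86 to 0.075 for Fgf4. In EloA_K754M against EloA_K754R Gata6 turned with equal medians (−0.062), quantile normalization (−0.19), chromosome medians removed (−0.088) or the length trend removed (−0.065), and ran over −0.064 to 0.072 without 1 library, while P4ha2 ran over −1.25 to 0.048.

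For Eed_null against CJ7_WT, the 911 genes at least 2-fold higher became 1430 and 93 with pseudocounts of 0.01 and 1 and 1466 as recovered reads per total, and the 248 lower became 411, 40 and 375, and 1531 against the mean of EloA_WT. Of the 10 genes, 6 higher became 0 with a pseudocount of 1, and 0 lower became 1, Lamc1 (−1.01), with equal medians. Against the mean of EloA_WT, Lama1 gave 0.0072 and Itgb4 0.23. Depth limits Sox7 and Sox17 throughout, and with 2 libraries a group, changes smaller than the intervals given cannot be resolved.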

Other observations

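The 10 trophectoderm markers summed to 6.58 RPKM in Eed_null and 4.99 RPKM in CJ7_WT, and to 3.81 to 4.56 RPKM in the 6 single libraries. Of the 6 with enough signal, 0 were at least 2-fold higher or lower in Eed_null, and 0 passed in any tested comparison with limma. At an unadjusted limma p under 0.05 there were 4 of 6 in EloA_K754R against EloA_WT, beside 25.1% of all genes. In EloA_K754M against EloA_K754R there were also 4 of 6, beside 18.5%, and in EloA_K754M against EloA_WT 0 of 6, beside 15.4%. The 10 markers of definitive endoderm and mesoderm summed to 2.55 RPKM in Eed_null and 1.33 RPKM in CJ7_WT, and to 1.32 to 2.25 RPKM in the single libraries. Of the 4 with enough signal, 1 was at least 2-fold higher in Eed_null, beside 6.12% of all genes. It was Gsc, a homeobox factor of the organizer, named after its values were seen, at 1.22 RPKM in Eed_null and 0.219 RPKM in CJ7_WT from 42 and 9 reads, a log2 ratio of 2.05.

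The genes whose log2 values over the 8 columns were most like those of each gene were searched among 10548 genes averaging 0.5 RPKM or more, as a description. By Pearson correlation they were Pik3r1 and Plk1 for Gata4 (0.987 and 0.981), Slc7a2 and Gm10702 for Gata6 (0.988 and 0.982), Ppp2r5a and Ube2g1 for Lama1 (0.968 and 0.967), Gm12798 and Lclat1 for Lamb1 (0.983 and 0.977), Brcc3 and Thoc2 for Lamc1 (0.928 and 0.923), 2810453I06Rik and Rbpms2 for Col4a1 (0.971 and 0.969), and Frmd6 and AL593857.1 for Col4a2 (0.978 and 0.975). For Gata4, Gata6, Lamb1, Col4a1 and Col4a2 the Eed_null column lies far from the others, so such values rest largely on it. Gata4 and Gata6 had a correlation of 0.962 over the 8 columns and 0.499 over the 6 single libraries, and Lamb1 and Col4a1 0.945 and 0.685. Slc7a2, a cationic amino acid transporter, ranged over the columns between 0.311 and 2.59 RPKM.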
